A study of Homo sapiens with 4 samples.

Results

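The RNAs that the mitochondrial genome makes for its own protein synthesis were examined in H1299, a cell line from a human lung carcinoma, with and without HgCl2. They are the 2 ribosomal RNA genes, MT-RNR1 and MT-RNR2, and the 22 transfer RNA genes, whose symbols start with MT-T, and they were taken by symbol from the 37 genes annotated on the mitochondrial genome. Of these 24 genes, 23 had a count in at least one column, among 39729 transcripts with a count of 227368 listed. The treated group received 5 μM HgCl2 for 48 h, and the control group received the solvent EtOH. The treatment text of the labels gives HgCl2 for all 4 samples, whereas the titles name 2 of them as EtOH and a tag calls these wild type, and the titles were followed. Each group has 2 columns, labelled replicates 1 and 2, which the study describes as independent. RNA was selected on poly-T beads, which bind runs of adenines, so counts on rRNA and tRNA genes are not a measure of all mature rRNA or tRNA. From which forms of these RNAs the counts came was not tested.

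Human mitochondrial DNA is read from both strands into long precursors. One precursor carries both rRNAs, most tRNAs and all mRNAs but one, and the other carries MT-ND6 and the remaining tRNAs. The tRNAs lie between the other genes and are cut out at both ends, which frees the rRNAs and mRNAs on either side. Mitochondrial rRNAs and most mitochondrial mRNAs receive short tails of adenines after cleavage, and tRNAs receive the letters CCA. MT-RNR1 is the rRNA of the small subunit of the mitochondrial ribosome and MT-RNR2 that of the large subunit, in which the valine tRNA is also a structural part. The annotation places 14 tRNA genes and 12 mRNAs on the strand of the rRNAs, the plus strand of the reference, and 8 tRNA genes and MT-ND6 on the opposite strand.

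Total counts lay between 4720978 and 5053120 per column. Before any comparison the columns of each group were set against each other. The variance of their difference was 0.505 times that of counting noise in EtOH (95% confidence interval 0.492 to 0.517, 12382 transcripts) and 0.516 times in HgCl2 (0.502 to 0.530, 10611 transcripts), against 31.8 between EtOH replicate 1 and HgCl2 replicate 1. Columns of the same group were closer than the sampling noise allows for separate libraries, so each group was counted as 1 sample. Every difference between the groups is one between 1 sample and 1 sample, no test was made, and intervals cover counting error only. In such bulk RNA, fewer cells of a kind and less RNA per cell cannot be told apart. Fold changes are those of the edgeR fit over 17547 transcripts, scaled by TMM, and are given on the log2 scale as HgCl2 over EtOH. As a check of the cell line, VIM had 501 to 628 counts over all its transcripts, KRT18 had 18 to 31, PTPRC and ALB had 0, and PECAM1 had 1 to 5. KRT8 had 53 and 58 counts in EtOH and 4 in each HgCl2 column.

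Both rRNAs had fewer counts in the HgCl2 columns, and MT-RNR1 differed more than MT-RNR2. The rRNA genes follow each other on the plus strand with a tRNA gene before, between and after them, and no base lies between any of these 5 genes. The 4 boundaries are shown because every rRNA end is also a tRNA end. Each line holds the last 20 bases of the first gene in lower case and the first 20 bases of the second in capitals, from GRCh38.
MT-TF to MT-RNR1 (chrM:628-667): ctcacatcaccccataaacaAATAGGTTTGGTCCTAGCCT
MT-RNR1 to MT-TV (chrM:1582-1621): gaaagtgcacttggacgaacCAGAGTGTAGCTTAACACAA
MT-TV to MT-RNR2 (chrM:1651-1690): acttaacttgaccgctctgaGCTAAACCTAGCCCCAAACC
MT-RNR2 to MT-TL1 (chrM:3210-3249): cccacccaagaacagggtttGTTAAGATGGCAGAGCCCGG

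MT-RNR1 (chrM:648-1601, 954 bases) had 15424 and 15483 counts in EtOH and 8877 and 8809 in HgCl2. Its log2 fold change was -0.66 (95% confidence interval -0.70 to -0.62), 1.58-fold lower in HgCl2. MT-RNR2 (chrM:1671-3229, 1559 bases) had 209360 and 209363 counts in EtOH and 169945 and 169777 in HgCl2. Its log2 fold change was -0.16 (-0.17 to -0.15), and this sign depended on the scaling. On the scale of the deposited FPKM values, which gives HgCl2 counts more weight by 0.18 on the log2 scale than TMM does, it was 0.02, whereas MT-RNR1 stayed negative at -0.48. The median over all fitted transcripts was -0.21 and that over the 2712 of them averaging 200 counts or more was 0.21.

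The ratio of the rRNAs to each other does not depend on any scaling between libraries. There were 13.6 and 13.5 counts on MT-RNR2 for each count on MT-RNR1 in EtOH replicates 1 and 2, and 19.1 and 19.3 in those of HgCl2. From the mean counts the ratio was 13.5 in EtOH (exact 95% interval 13.3 to 13.8) and 19.2 in HgCl2 (18.8 to 19.6), a log2 change of 0.50. Per base of gene, in FPKM, MT-RNR2 stood 8.29 times above MT-RNR1 in EtOH and 11.8 times in HgCl2. In this RNA selected on poly-T beads, the counts on the 2 rRNAs of the same precursor were thus unequal in both groups and more so in HgCl2.

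**Figure D1:**
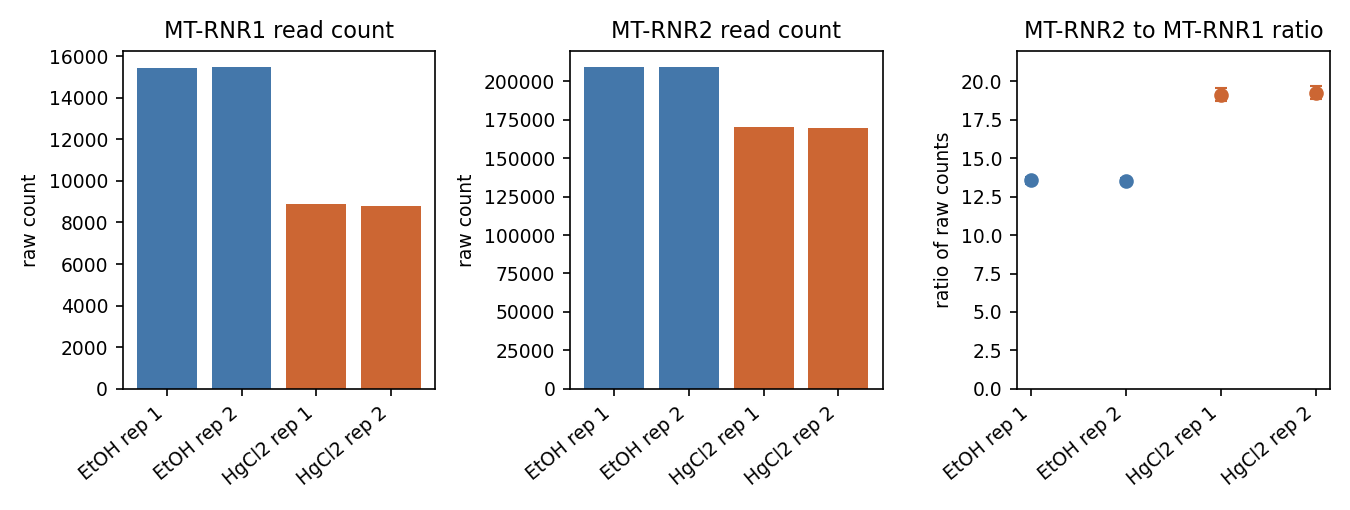
Raw counts of MT-RNR1 and MT-RNR2 in each of the 4 columns (bars, axes from 0) and the MT-RNR2 to MT-RNR1 ratio of raw counts with its exact 95% interval (points with bars). EtOH is blue and HgCl2 orange; MT-RNR1 has 15424 and 15483 counts in EtOH and 8877 and 8809 in HgCl2, and the ratio lies at 13.5 to 13.6 in EtOH and 19.1 to 19.3 in HgCl2.

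Within the counts on the mitochondrial genome, the rRNAs took a larger part in HgCl2. They held 17.9% of mitochondrial counts in each EtOH column and 21.1% in each HgCl2 column, a difference of 3.17 percentage points. MT-RNR2 accounted for this, with 16.7% (exact 95% interval 16.6% to 16.8%) in EtOH and 20.08% (19.99% to 20.16%) in HgCl2, while MT-RNR1 went from 1.23% (1.21% to 1.25%) to 1.05% (1.02% to 1.07%). The tRNA genes held 0.132% (0.126% to 0.139%) and 0.235% (0.225% to 0.246%). The 13 mRNAs made up the rest, 81.9% and 78.6%. Of all counts in a column, however, the rRNAs held 4.45% in EtOH and 3.78% to 3.79% in HgCl2, since mitochondrial counts as a whole were a smaller part of the HgCl2 columns. The mRNAs summed had a log2 fold change of -0.48, so on their scale MT-RNR2 was higher by 0.32 (0.31 to 0.33) and MT-RNR1 lower, at -0.18 (-0.22 to -0.14).

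Of the 22 tRNA genes, 21 had a count, and MT-TR, the arginine tRNA, had 0 in all 4 columns. The limit that 0 allows is 3 counts per column, which for its 65 bases is an FPKM of up to 8.40 in EtOH and 10.5 in HgCl2. All members but MT-TR passed the filter on FPKM, 23 of 24. In 7 tRNA genes, MT-TR among them, both groups had a mean at or under 3 counts, and no fold is given for these. The other 15 had more than 3 counts in at least one group. The column sums over all tRNA genes were 1675 and 1641 in EtOH and 1977 and 2005 in HgCl2.

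Counts were spread very unevenly over the tRNA genes. MT-TL1, which reads leucine codons that start with UU, held 40.05% of tRNA counts in EtOH and 37.3% in HgCl2, and the threonine tRNA MT-TT held 21.4% and 19.7%. In FPKM, which accounts for length, the order in EtOH was MT-RNR2 (24446), MT-RNR1 (2949), MT-TL1 (1612), MT-TT (976), MT-TF (394) and MT-TI (331). Of the neighbours in this order only MT-TF and MT-TI had overlapping 95% counting intervals. From MT-TD (167) down to MT-TR (0) each of the 18 genes overlapped with the next. In HgCl2 the order was MT-RNR2 (24782), MT-TL1 (2253), MT-RNR1 (2108), MT-TT (1351), MT-TF (867), MT-TI (687) and MT-TM (587), with overlap between MT-TL1 and MT-RNR1, between MT-TF and MT-TI and between MT-TI and MT-TM. The FPKM of a gene of 59 to 75 bases is a rough level, because a sequenced fragment can be longer than the gene.

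**Figure D2:**
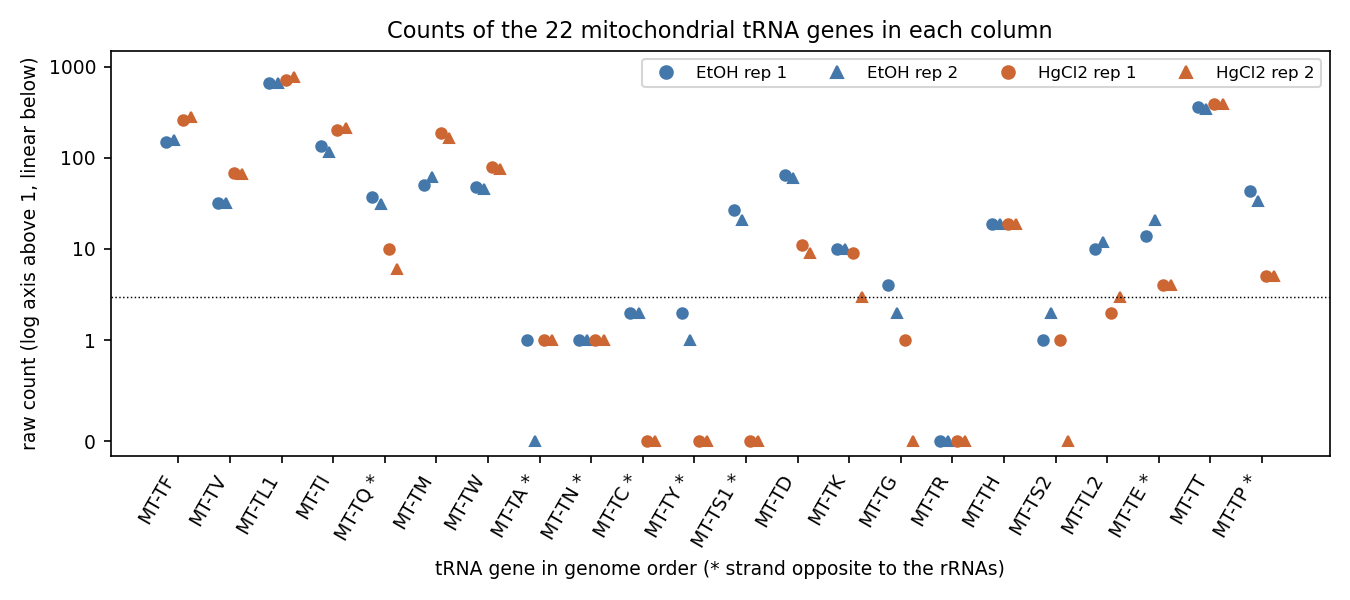
Raw counts of each of the 22 tRNA genes in genome order, in the 4 columns (blue EtOH, orange HgCl2, circles replicate 1, triangles replicate 2; log axis above 1 and linear below; the dotted line marks 3 counts; asterisks mark genes of the strand opposite to the rRNAs). HgCl2 points lie above EtOH points from MT-TF to MT-TW on the strand of the rRNAs and for MT-TT. They lie below EtOH points for MT-TQ, MT-TS1, MT-TD, MT-TK, MT-TL2, MT-TE and MT-TP, and, at very few counts, for MT-TG, MT-TC and MT-TY.

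Among the 17 members with a fold or a bound, 2 were at least 2-fold higher in HgCl2, MT-TV and MT-TM, and 6 at least 2-fold lower, MT-TQ, MT-TS1, MT-TD, MT-TL2, MT-TE and MT-TP. Of all fitted transcripts, 19.2% were at least 2-fold higher and 34.1% at least 2-fold lower. This background depends on counts. Of the 7 members with a mean of over 3 and under 30 counts, 5 were lower, where 45.4% of all such transcripts were. Of the 5 members with 30 to under 200 counts, 2 were higher and 1 lower, where 22.2% and 14.2% of such transcripts were. Of the 5 with at least 200 counts, 0 were higher and 0 lower, where 4.65% and 2.03% of such transcripts were, 6.67% together. The members' shares are of few genes, and nothing particular to them is read from these counts.

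On the strand of the rRNAs, the 6 tRNA genes nearest to the start of the precursor, from MT-TF to MT-TW, all had more counts in HgCl2. Their sequences are shown from GRCh38, 5′ to 3′ in DNA letters, with the anticodon in capitals. The anticodon, which pairs with the codon, was found as the letters that fit the named amino acid within a loop of 7 bases, after a C or T, with at least 3 of 5 flanking bases on each side able to pair.
MT-TF (chrM:577-647, plus strand): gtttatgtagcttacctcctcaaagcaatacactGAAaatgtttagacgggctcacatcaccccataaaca
MT-TV (chrM:1602-1670, plus strand): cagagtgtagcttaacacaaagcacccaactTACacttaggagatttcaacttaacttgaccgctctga
MT-TL1 (chrM:3230-3304, plus strand): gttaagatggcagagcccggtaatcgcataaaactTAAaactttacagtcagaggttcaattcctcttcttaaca
MT-TI (chrM:4263-4331, plus strand): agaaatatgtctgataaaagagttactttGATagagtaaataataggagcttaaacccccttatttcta
MT-TM (chrM:4402-4469, plus strand): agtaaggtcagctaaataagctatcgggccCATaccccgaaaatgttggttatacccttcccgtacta
MT-TW (chrM:5512-5579, plus strand): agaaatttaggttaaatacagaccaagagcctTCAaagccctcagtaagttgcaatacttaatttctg

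MT-TF, the phenylalanine tRNA and the first gene of the precursor, had 150 and 157 counts in EtOH and 263 and 278 in HgCl2. Its log2 fold change was 0.96 (0.67 to 1.256), just under the 2-fold line. MT-TV, the valine tRNA that is built into the large ribosomal subunit, had 32 in both EtOH columns and 68 and 66 in HgCl2. Its log2 fold change was 1.21 (0.58 to 1.86), while that of the rRNA genes that adjoin it on both sides, MT-RNR1 and MT-RNR2, was negative and their intervals did not overlap with its own.

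MT-TL1, which follows MT-RNR2, had 662 and 666 counts in EtOH and 719 and 767 in HgCl2. Its log2 fold change of 0.31 (0.15 to 0.46) was the smallest of the 6. The isoleucine tRNA MT-TI had 136 and 115 counts against 203 and 214, a log2 fold change of 0.88 (0.55 to 1.21). The methionine tRNA MT-TM, which serves both to start and to extend proteins in mitochondria, had 51 and 62 in EtOH and 186 and 165 in HgCl2. At 1.78 (1.34 to 2.24), or 3.43-fold, it had the largest higher value of all members. MT-TW, the tryptophan tRNA, had 48 and 45 against 79 and 75, at 0.87 (0.33 to 1.43). Each group was counted as 1 sample, so the order of the single columns adds nothing to these intervals.

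Farther along the same strand the tRNA genes no longer shared a direction.
MT-TD (chrM:7518-7585, plus strand): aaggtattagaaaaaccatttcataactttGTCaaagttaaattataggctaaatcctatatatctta
MT-TL2 (chrM:12266-12336, plus strand): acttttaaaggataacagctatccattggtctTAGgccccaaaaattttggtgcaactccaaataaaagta
MT-TT (chrM:15888-15953, plus strand): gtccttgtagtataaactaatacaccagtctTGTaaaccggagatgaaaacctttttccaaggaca

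MT-TD, the aspartate tRNA just before MT-CO2, had 65 and 60 counts in EtOH and 11 and 9 in HgCl2. Its log2 fold change was -2.49 (-3.63 to -1.53), 5.60-fold lower. MT-TL2, which reads the other leucine codons, had 10 and 12 against 2 and 3, a log2 fold change of -1.94 with an interval from -4.77 to 0.04 that includes no difference. Its HgCl2 mean of 2.5 counts is under the limit of 3, so that its place among the 6 lower genes rests on a ratio of very few counts. The lysine tRNA MT-TK had 10 in both EtOH columns and 9 and 3 in HgCl2, at -0.58 (-2.34 to 1.01). With HgCl2 replicate 2 alone its value was -1.55, and with HgCl2 replicate 1 alone it was -0.01. The histidine tRNA MT-TH had 19 counts in all 4 columns, at 0.14 (-0.85 to 1.14), and -0.03 when scaled over transcripts that reach 10 counts in all columns. MT-TT, at the end of the precursor behind MT-CYB, had 360 and 348 counts in EtOH and 395 and 389 in HgCl2. Its log2 fold change of 0.29 (0.08 to 0.50) was close to that of MT-TL1, while MT-CYB beside it was at -1.08 (-1.11 to -1.05).

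The remaining genes of this strand were too low for a fold. MT-TG, the glycine tRNA, had 4 and 2 counts in EtOH and 1 and 0 in HgCl2, and MT-TS2, one of the serine tRNAs, had 1 and 2 against 1 and 0. Differences in these were not detectable at this depth.

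The 4 tRNA genes of the opposite strand with more than 3 counts in a group were at least 2-fold lower in HgCl2. All 4 averaged under 30 counts, where 45.4% of all transcripts were that much lower, and MT-TD and MT-TL2 of the rRNA strand were lower by a like amount. The part of count level in the strand difference was not tested. They are shown as the RNA reads, on the minus strand.
MT-TQ (chrM:4329-4400, minus strand): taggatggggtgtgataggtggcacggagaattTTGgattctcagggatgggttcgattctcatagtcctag
MT-TS1 (chrM:7446-7514, minus strand): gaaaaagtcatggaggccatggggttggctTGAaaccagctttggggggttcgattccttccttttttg
MT-TE (chrM:14674-14742, minus strand): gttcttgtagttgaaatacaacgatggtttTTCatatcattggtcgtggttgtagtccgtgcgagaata
MT-TP (chrM:15956-16023, minus strand): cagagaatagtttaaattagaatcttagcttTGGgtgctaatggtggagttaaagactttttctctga

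MT-TQ, the glutamine tRNA, had 37 and 31 counts in EtOH and 10 and 6 in HgCl2, a log2 fold change of -1.93 (-3.27 to -0.81). It shares 3 bases with MT-TI on the other strand, whose value was positive, and the intervals of the 2 genes did not overlap. The serine tRNA MT-TS1, which reads codons that start with UC, had 27 and 21 counts in EtOH and 0 in both HgCl2 columns. Against a limit of 3 counts for the group, and with the EtOH mean taken without its counting error, it was at least 7.24-fold lower. The glutamate tRNA MT-TE had 14 and 21 against 4 in each HgCl2 column, at -1.95 (-4.01 to -0.38). The proline tRNA MT-TP, the first gene of the precursor of this strand, had 43 and 34 in EtOH and 5 in each HgCl2 column, at -2.77 (-4.50 to -1.46), or 6.83-fold lower. For these 4 genes, too, each group was counted as 1 sample. The cluster of MT-TA, MT-TN, MT-TC and MT-TY, for alanine, asparagine, cysteine and tyrosine, had at most 2 counts in any column. The study describes the sequencing as directional, but its account of the library, made with a TruSeq RNA kit, names no step that keeps the strand. Whether the counting used the strand of the reads is not given in the sources used here. Reads from MT-TQ and the other genes of this strand therefore cannot be told apart from reads of the precursor that runs opposite to them.

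**Figure D3:**
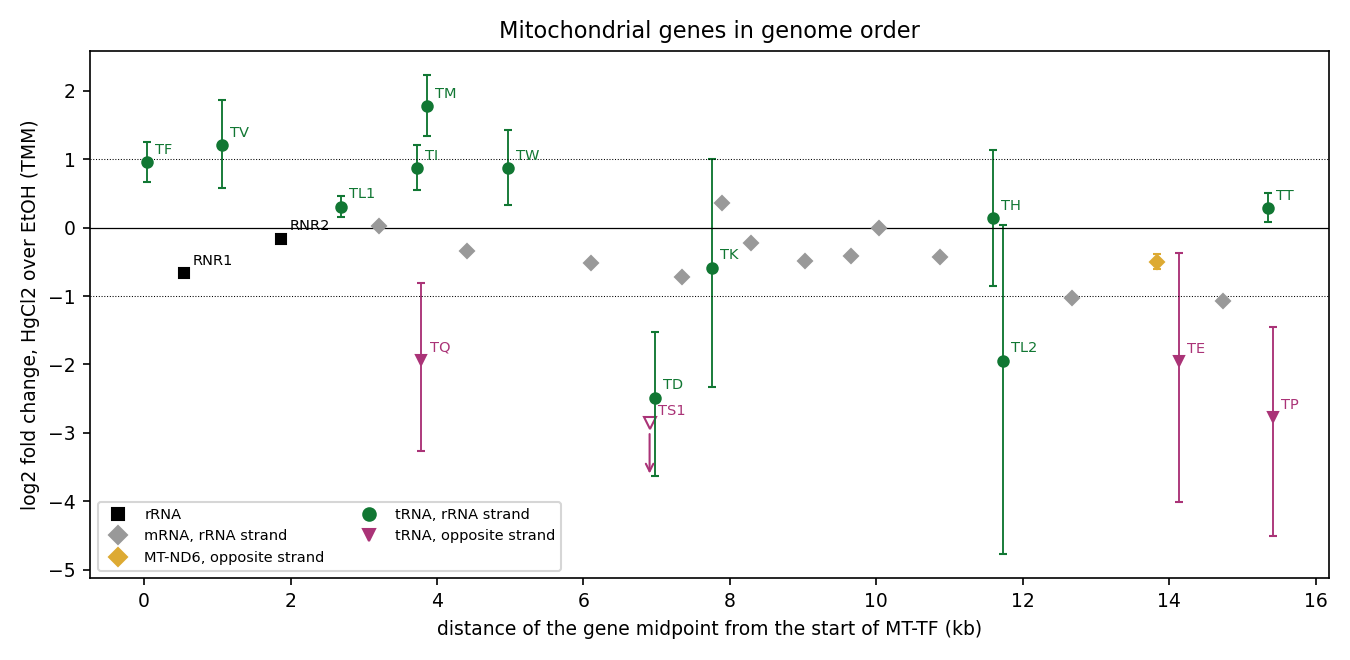
Log2 fold change of HgCl2 over EtOH (TMM scale, vertical axis) with exact 95% counting intervals against the distance of each gene's midpoint from the start of MT-TF in kb. Dotted lines mark 2-fold, the open triangle with an arrow is the bound of MT-TS1, and genes at or under 3 counts in both groups are left out; the green tRNAs of the rRNA strand lie above 0 up to MT-TW and the purple tRNAs of the opposite strand lie below -1.

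The tRNA genes were also summed by their annotated strand, a grouping chosen after the counts were seen. Whether the reads came from that strand was not tested. The 14 tRNA genes of the rRNA strand had 1548 and 1530 counts in EtOH and 1956 and 1988 in HgCl2. Their log2 fold change was 0.50 (0.40 to 0.60). The 8 tRNA genes of the opposite strand had 127 and 111 counts against 21 and 17, at -2.50 (-3.29 to -1.80), 5.67-fold lower. The intervals, which cover counting error only, lay far apart. The 4 genes of the opposite strand with over 3 counts in a group all averaged under 30, and the part of count level was not tested. MT-ND6, the mRNA of the opposite strand, had 1552 and 1576 counts in EtOH and 1006 and 1004 in HgCl2. It was at -0.49 (-0.61 to -0.38), close to the -0.48 of the 12 mRNAs of the other strand, and its interval did not overlap with that of the tRNA genes of its own strand. Relative to the 13 mRNAs, a scale that does not use the rest of the library, the tRNA genes of the rRNA strand were at 0.98 (0.89 to 1.08) and those of the opposite strand at -2.02 (-2.80 to -1.32).

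All 22 tRNA genes together were at 0.41 (0.31 to 0.50), and at 0.89 (0.79 to 0.98) relative to the mRNAs. Along the rRNA strand the genes were also split behind MT-TW, where the sign was seen to turn, so that the sums on either side describe this choice and are no further result. The 6 genes from MT-TF to MT-TW went from 64.4% and 65.6% of tRNA counts in EtOH to 76.8% and 78.1% in HgCl2, with a log2 fold change of 0.66 (0.55 to 0.77). The 8 genes from MT-TD to MT-TT, the rest of this strand, went from 469 and 453 counts to 438 and 423, at 0.04 (-0.15 to 0.24). Without MT-TT, which had most of these counts, the other 7 were at -1.33 (-1.90 to -0.79). Over the 11 tRNA genes of this strand with a fold, the log2 fold change and the distance from MT-TF had a Spearman correlation of -0.71, and over its 12 mRNAs of -0.47. These points share the same 2 samples and differ widely in counts, and the correlations are a description.

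**Figure D4:**
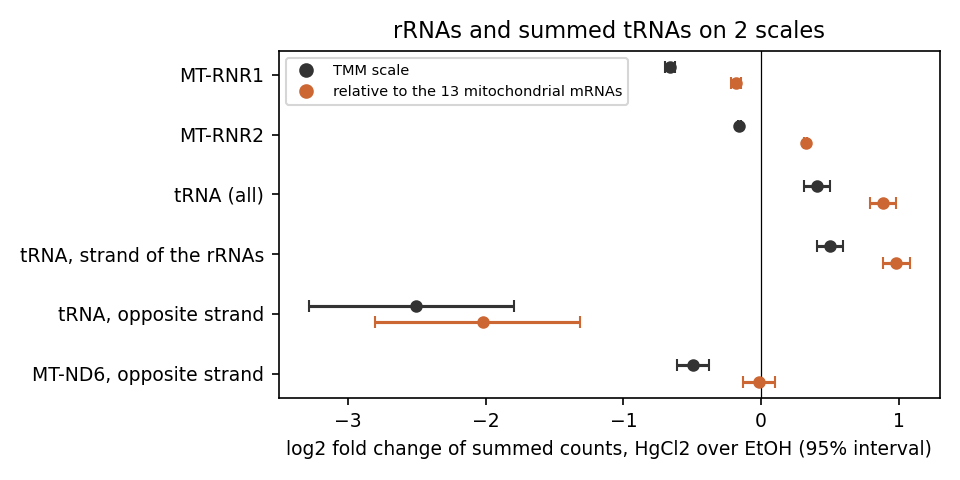
Log2 fold change of the summed counts (horizontal axis) of the rRNAs, the tRNA genes by strand and MT-ND6, with 95% counting intervals, on the TMM scale (black) and relative to the 13 mitochondrial mRNAs (orange). MT-RNR2 changes sign between the scales, from -0.16 to 0.32, while the tRNA sums of the 2 strands keep opposite signs.

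Most tRNA genes adjoin other genes. A flank was called open where at least 10 bases lay between the tRNA gene and the next gene on either strand. This held for 6 genes, MT-TF, MT-TN, MT-TC, MT-TY, MT-TK and MT-TP, and the 16 others adjoined other genes on both sides. The open genes held 12.5% of tRNA counts in EtOH and 14.2% in HgCl2. The genes with the most counts were closed ones, MT-TL1 with 0 bases to MT-RNR2 and 2 to MT-ND1, and MT-TT with 0 bases to MT-CYB and 2 to MT-TP. MT-TF and MT-TP border the same stretch of 1122 bases without genes, from its 2 ends, and had values of opposite sign. Fragments that touch more than 1 gene were not recoverable from these counts, and their part in the tRNA values was not tested.

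The nuclear genes that make, cut, modify and charge these RNAs were taken as 6 lists of 102 symbols, 99 of which were found in the annotation. They had 114 fitted transcripts of 68 genes. Of these transcripts, 16 (14.0%) were at least 2-fold higher and 42 (36.8%) at least 2-fold lower in HgCl2, against 19.2% and 34.1% of all fitted transcripts, and their median was -0.38 against -0.21. Among the 47 averaging 30 counts or more, 7 were higher and 5 lower, where 15.5% and 9.53% of all such transcripts were, and the median was 0.19 against 0.21. The shares were close to the background in both cases. These are values of single transcripts, some of them retained introns or forms without a defined coding region. The counts of each list given below stand against the same 19.2% higher and 34.1% lower, and each list is small.

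The list of transcription factors and the polymerase of mitochondria had 5 fitted transcripts, 0 higher and 2 lower. A protein-coding transcript of MTERF2 (ENST00000552029), of the mitochondrial termination factor family, had 53 and 51 counts in EtOH and 18 and 20 in HgCl2, at -1.30 (-2.15 to -0.53). For cleavage at tRNA ends and CCA addition, 2 of 18 transcripts were higher and 8 lower. FASTKD1 (ENST00000453153), an RNA-binding protein of mitochondria, had 58 and 63 against 16 and 10, at -2.06 (-3.06 to -1.19). A transcript of ANGEL2 without a defined coding region (ENST00000473303) had 70 and 65 against 191 and 193, at 1.65 (1.24 to 2.07).

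For rRNA modification and ribosome assembly, 5 of 30 transcripts were higher and 12 lower. GTPBP10 (ENST00000222511), a GTPase that helps to assemble the large subunit around MT-RNR2, had 20 and 27 counts in EtOH and 49 and 66 in HgCl2, at 1.43 (0.72 to 2.19). For tRNA modification, 2 of 19 were higher and 8 lower. TRMU, which thiolates the anticodon of MT-TK, MT-TE and MT-TQ, had a transcript without a defined coding region (ENST00000476901) with 127 and 115 against 36 and 25 counts, at -1.84 (-2.47 to -1.262). ALKBH1 (ENST00000216489), which oxidises the anticodon of MT-TM, had 48 and 43 against 20 in each HgCl2 column, at -1.04 (-1.88 to -0.25). A retained intron of CDK5RAP1 (ENST00000473791), a gene for the methylthiolation of mitochondrial tRNAs, had 55 and 49 against 111 and 121, at 1.30 (0.82 to 1.80).

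Of 23 transcripts of aminoacyl-tRNA synthetases, which load tRNAs with amino acids, 1 was higher and 9 lower. The higher one, YARS2 (ENST00000324868), serves MT-TY and had 18 and 13 counts in EtOH and 60 and 47 in HgCl2, at 1.92 (1.09 to 2.85). For RNA stability and decay, 6 of 19 were higher and 3 lower. Of the 9 of these averaging 30 counts or more, 3 were higher and 1 lower. Their median was 0.02, against 0.21 over all such transcripts. LRPPRC, which protects mitochondrial mRNAs, had a transcript marked for nonsense-mediated decay (ENST00000419884) with 11 and 10 against 70 and 62 counts, at 2.78 (1.85 to 3.89). REXO2, an enzyme that clears short RNA pieces, had 2 retained introns that were higher, ENST00000538791 at 1.35 (0.58 to 2.20) and ENST00000543243 at 3.59 (2.32 to 5.31), and ENST00000544507 that was lower, at -1.02 (-1.65 to -0.41).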

How the data were processed

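Counts per transcript and FPKM values were taken from tables of the whole series, whose columns carry the group and replicate of the titles. The authors trimmed reads with Trim Galore, used STAR 2.5.4b and an Ensembl annotation of GRCh38 for alignment, and counted them per transcript with Rsubread; the options for strand and for fragments on more than 1 gene are not given in the sources used here. The deposited counts are not normalized. FPKM values, also deposited, come from the fpkm function of DESeq2 1.26.0 as run by the authors, which scales by median ratios.

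Transcripts were named from GENCODE 44 on GRCh38 (98.3% of identifiers found). The lengths implied by FPKM matched the annotated lengths of all mitochondrial genes with a count. edgeR 4.0.16 (R 4.3.3, TMM, glmQLFit) was fitted over transcripts whose group mean exceeded an FPKM of 1 in EtOH or HgCl2. The planned p-values were not used, since the columns of a group were counted as 1 sample. Intervals are exact (Clopper-Pearson, 95%, from mean counts). DESeq2 1.42.0, other scalings and filters, a replicate block and leaving out each column were alternatives. Total counts were 4720978 to 5053120, and 3 counts were the floor. The fit, the column comparison and the intervals were tested on simulated data. Named genes were all 24 members and, of each list, transcripts averaging 30 counts or more with a 2-fold difference. Members and lists were chosen with earlier results of these data known. Same-numbered columns showed no shared deviation.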

Additional observations from a re-analysis of the deposited data

How the results depend on the processing

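MT-RNR1 stayed lower in HgCl2 under every alternative. Its log2 fold change was -0.62 with DESeq2, -0.48 on the FPKM scale, -0.71 with total counts, -0.52 with no FPKM filter, -0.84 when all columns had to reach 10 counts and -0.18 on the scale of the mitochondrial mRNAs, a scale chosen after the data were seen. MT-RNR2 was at -0.12, 0.020, -0.20, -0.019, -0.33 and 0.32 under the same settings in this order, so its sign turned on the FPKM scale and on that of the mRNAs. The summed tRNA genes moved to 0.59 on the FPKM scale, 0.55 with no FPKM filter, 0.23 with the minimum of 10 counts and 0.89 on the mRNA scale, and those of the rRNA strand to 0.68, 0.64, 0.33 and 0.98. Those of the opposite strand lay between -2.68 and -2.02 under all alternatives, and at -2.38 without MT-TP, which had the most counts of that strand in EtOH. The number of members at least 2-fold apart was 8. It lay between 8 and 11 on the other scalings and was 12 at a threshold of 1.5-fold and 2 with the minimum of 10 counts, which leaves out the 6 lower genes. MT-TF, MT-TI and MT-TW passed 2-fold on the FPKM scale, at 1.14, 1.05 and 1.05.

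The rRNA share differed by 4.95 percentage points when set against the counts on the 13 mRNAs, and by -0.66, a reversed sign, when set against all counts. The tRNA share differed by 0.138 and 0.00935 points in these. With neighbours on the same strand only, open tRNA genes held 55.9% of tRNA counts in EtOH and 58.2% in HgCl2. The list transcripts past 2-fold numbered 58, and 16 with that minimum, where fewer transcripts are tested. The column comparison of HgCl2 gave 0.497 with at least 100 counts.

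Leaving out each column in turn gave -0.66 to -0.66 for MT-RNR1, -0.16 to -0.16 for MT-RNR2, 0.39 to 0.42 for the summed tRNA genes and 8 to 10 members. With a replicate block the values of MT-RNR1 and MT-RNR2 were -0.66 and -0.16 and 8 members passed, and the block changed no call. Columns of a group differed by less than counting noise, so leaving out a column or adding a block could hardly move well-counted values. Their stability is therefore no evidence of agreement between independent samples. The numbers were not read as pairs, since the labels give no shared origin and the deviations of same-numbered columns correlated at 0.01 over 6763 transcripts. Of 148 values of 14 single tRNA genes under alternatives, 147 kept their sign, the other being MT-TH at -0.03. Depth limits the tRNA genes under 30 counts most, and each group is 1 sample.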
